A study of Mus musculus with 4 samples.

Results

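The genes described here code for 8 secreted growth factors and cytokines: Csf2 (GM-CSF), Il3, Csf1 (M-CSF), Il2, Lif, Osm, Hbegf and Vegfa. They were taken from the expression table by gene symbol, and all 8 were found among its 27179 genes. RNA sequencing had been done on lymphoid tissue inducer (LTi) cells, a lymphotoxin-producing kind of innate lymphoid cell, from the small intestine lamina propria of C57BL/6 mice. The sorted cells were live, carried CD127 and CCR6, and lacked lineage markers, KLRG1, NK1.1 and NKp46. The Gata3-KO group had 2 libraries from Gata3fl/fl-VavCre mice, and the Ctrl group had 2 libraries from Gata3+/+ mice. VavCre drives Cre in blood cells in general, so floxed Gata3, whose product is a transcription factor needed by T cells and by several innate lymphocytes, may be lost outside LTi cells too. Whether the Gata3+/+ mice carried VavCre is not stated in the labels. The labels give neither the age or sex of the mice nor whether the replicates were separate animals, so p-values measure only the spread between these libraries, which may be technical.

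GM-CSF and IL-3 are small cytokines that share the beta chain of their receptors and act on myeloid cells, and M-CSF keeps macrophages alive through the receptor tyrosine kinase CSF1R. In the intestine, innate lymphoid cells of the RORγt lineage are a known source of GM-CSF and IL-2, which act on mononuclear phagocytes and on regulatory T cells. LIF and oncostatin M belong to the IL-6 family and signal through gp130, HB-EGF is shed from the membrane and binds the EGF receptor and ERBB4, and VEGF-A acts on endothelium. Several of these messenger RNAs are short-lived, because proteins such as tristetraprolin bind AU-rich elements, repeats of the pentamer ATTTA in the 3′ UTR, and bring about decay.

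Of the 8 genes, 6 had enough reads to be tested and none passed the test across all genes, limma's adjusted p under 0.05. The 2 genes nearest to it were Csf2 and Lif, which averaged 6.96 and 5.93 RPKM in Gata3-KO cells, against 21.4 and 14.2 RPKM in Ctrl cells. RPKM counts reads per kilobase of gene, scaled to library size, and the log2 differences given here are Gata3-KO minus Ctrl on the log2(RPKM + 1) scale of the deposited values, which understates differences of low genes. An unadjusted p under 0.05 in limma was reached by 2 of the 6, both lower in Gata3-KO cells. In limma-voom none was called. Over all 14258 tested genes 8.98% passed the adjusted threshold, 8.3% higher and 0.687% lower, and 2.55% were lower at an unadjusted p under 0.05. The median log2 difference was -0.35 over the 6 tested growth factors and 0.43 over all tested genes.

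The AU-rich stretches are shown because the members differ in them. Each line is the 30 bases of the GENCODE 3′ UTR (GRCm38) with the most ATTTA pentamers, 5′ to 3′ on the strand of the gene, and capitals mark the pentamers.
Csf2, chr11:54247324-54247353 (minus strand): aaatATTTATTTATTTATTTATTTAttttt
Il2, chr3:37121039-37121068 (minus strand): tATTTATTTAaatATTTAactttaATTTAt
Lif, chr11:4272414-4272443 (plus strand): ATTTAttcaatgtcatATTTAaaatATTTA
Osm, chr11:4240945-4240974 (plus strand): ttttatATTTAtaaggcctATTTAtaatgt
Csf2 held 9 pentamers in a 3′ UTR of 317 bases, with 5 in the stretch shown. Il2 held 7 in 581 bases, with 4 in the stretch. Counts of 5 or more in 30 bases were found in 0.272% of 20971 protein-coding genes and of 4 or more in 0.591%. Lif held 7 pentamers in 3180 bases, with 3 in the stretch, a count reached by 2.55% of genes. The median 3′ UTR over all genes had 954 bases. A longer UTR holds more stretches in which to reach a count, and these shares were not matched for length. Osm, Vegfa and Csf1 held at most 2 in any 30 bases, a count reached by 18.7% of genes. Hbegf held 4 in 1456 bases and no 2 of them within 30 bases, and 65.0% of genes held at least 1. The GENCODE model of Il3 ends 218 bases short of RefSeq's, so its UTR was not compared.

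**Figure D1:**
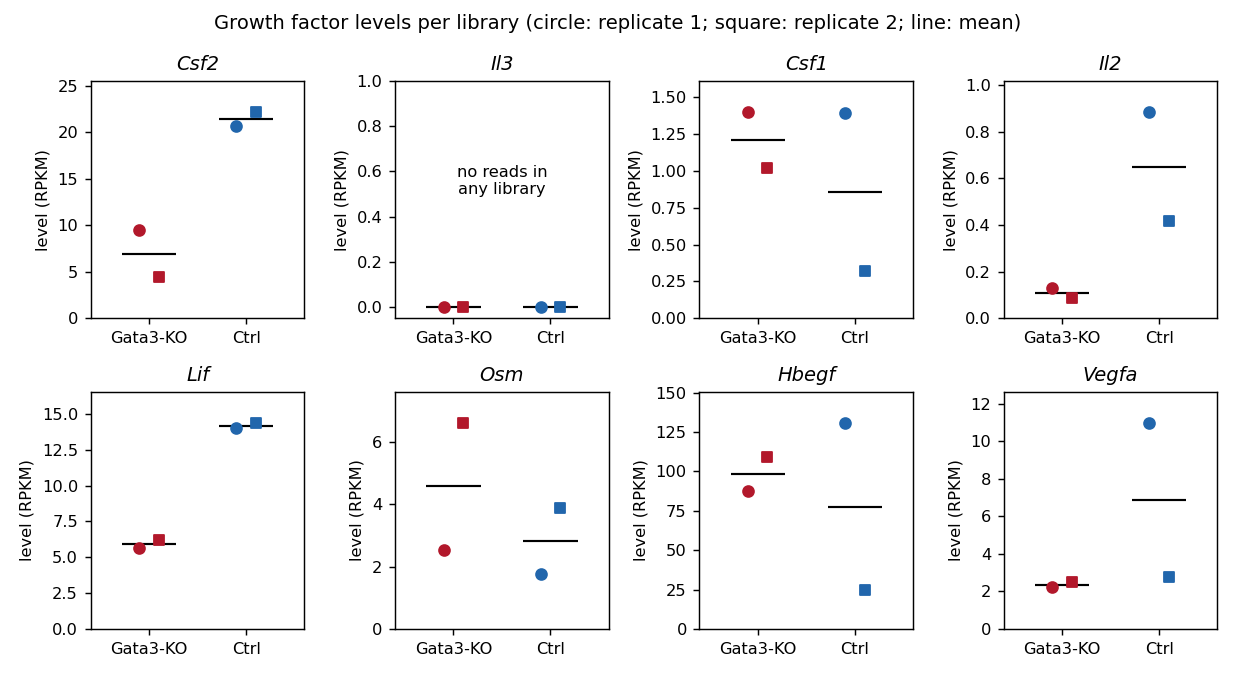
Level of each growth factor gene in RPKM (vertical axis from 0, own range in each panel) in the 2 Gata3-KO libraries (left) and the 2 Ctrl libraries (right); circles are replicate 1, squares replicate 2, and lines the mean. Csf2, Lif, Vegfa and Il2 lay lower in both Gata3-KO libraries than in both Ctrl libraries, whereas Osm, Csf1 and Hbegf overlapped and Il3 had no reads.

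Csf2 (Entrez 12981, chromosome 11: 54247270 to 54249899, minus strand, GRCm38) codes for GM-CSF, the growth factor of granulocytes and macrophages. It was measured at 9.51 and 4.40 RPKM in the Gata3-KO libraries, from 239 and 109 reads, against 20.7 and 22.2 RPKM in the Ctrl libraries, from 305 and 291 reads. Both Gata3-KO libraries lay below both Ctrl libraries, and the Gata3-KO libraries differed from each other more than the Ctrl libraries did. The means were 6.96 ± 3.62 RPKM in Gata3-KO and 21.4 ± 1.12 RPKM in Ctrl cells (SD, n = 2 each), a ratio of 0.324. The log2 difference was -1.57 ± 0.39 (SE), with a 95% interval from -2.51 to -0.64 and an adjusted p of 0.0562 in limma, just outside the threshold. With only the 9999 genes of at least 5 CPM (reads scaled to library size only) in 2 libraries tested, its adjusted p in limma was 0.0291, and Csf2 passed. Over all 18 alternatives its adjusted p in limma or limma-voom ran from 0.0291 to 0.406. Without Gata3-KO replicate 2 the log2 difference was -1.09, and without Gata3-KO replicate 1 it was -2.05.

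Lif (Entrez 16878, chromosome 11: 4257568 to 4272514, plus strand) codes for leukaemia inhibitory factor, which signals through LIFR and gp130. Its level was 5.67 and 6.19 RPKM in Gata3-KO libraries, from 557 and 600 reads, against 14.0 and 14.4 RPKM in Ctrl libraries, from 808 and 737 reads. The replicates lay close together within each genotype, and the genotypes did not overlap. The means were 5.93 ± 0.371 RPKM in Gata3-KO and 14.2 ± 0.288 RPKM in Ctrl cells (SD, n = 2 each), a ratio of 0.418. The log2 difference of -1.13 ± 0.28 (SE), with a 95% interval from -1.82 to -0.45, had an adjusted p of 0.0577 in limma. With the 5 CPM filter Lif passed too, at an adjusted p of 0.0388 in limma, so that 2 of the 6 were then called, against 17.3% of the genes tested there and 1.34% called lower. Over the alternatives its adjusted p ran from 0.0388 to 0.406 in limma or limma-voom.

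The start regions of these 2 genes are printed because they were the members that passed under the stricter filter. Each is the RefSeq window (GRCm38.p6) of 250 bases before and 50 after the annotated start, with capitals for matches on either strand to 4 motifs. The GATA motif was searched as AGATAA, in another spelling as AGATAG, in another spelling as TGATAA, and in the last spelling as TGATAG. The NFAT core was searched as GGAAA, the AP-1 site was searched as TGANTCA, and the TATA box was searched as TATAAA.
Csf2, chr11:54249850-54250149 (minus strand): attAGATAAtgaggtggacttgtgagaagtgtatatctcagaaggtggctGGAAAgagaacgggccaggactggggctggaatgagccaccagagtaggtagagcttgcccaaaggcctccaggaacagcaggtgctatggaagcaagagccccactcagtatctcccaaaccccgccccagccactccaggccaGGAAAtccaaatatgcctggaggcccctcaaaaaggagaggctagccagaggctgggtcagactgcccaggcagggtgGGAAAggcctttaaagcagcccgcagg
Lif, chr11:4257318-4257617 (plus strand): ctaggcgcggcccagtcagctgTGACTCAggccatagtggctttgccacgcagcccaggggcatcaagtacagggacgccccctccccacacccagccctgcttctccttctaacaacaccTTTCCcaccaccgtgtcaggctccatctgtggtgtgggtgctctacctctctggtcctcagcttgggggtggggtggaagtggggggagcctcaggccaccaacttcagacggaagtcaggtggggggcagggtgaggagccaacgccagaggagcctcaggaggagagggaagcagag
The Csf2 window held 1 GATA match and 3 GGAAA matches. RefSeq's outermost Csf2 start, 54249899, lies 232 bases upstream of the start of the GENCODE model, 54249667, so the window lies upstream of that start. The Lif window held 1 AP-1 match and 1 GGAAA match, on the reverse strand, and no GATA match. Of 32851 RefSeq promoter windows of the same length, 29.8% held a GATA match, 61.3% GGAAA, 7.81% the AP-1 site and 13.6% TATAAA. A window was at hand for 6 of the 8 genes, and besides Csf2 a GATA match was found for Il2 and Il3, for 1 of the 2 windows of Vegfa, and not for Csf1. These matches describe letters in a window and say nothing of binding.

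Il3 (Entrez 16187, chromosome 11: 54265085 to 54267279), the neighbour of Csf2 on the same strand, had 0 reads in all 4 libraries. The gap between the 2 genes is 15.2 kb, with no other RefSeq gene in it. A count of 0 allows up to 3 reads, which is 0.123 and 0.125 CPM in the Gata3-KO libraries and 0.210 and 0.237 CPM in the Ctrl libraries. Lif likewise lies 16.5 kb from Osm, with no RefSeq gene between them.

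Il2 (Entrez 16183, chromosome 3: 37120713 to 37125954) codes for interleukin 2, a growth factor of T cells, and was too low for the test. There were 3 and 2 reads in the Gata3-KO libraries, against 12 and 5 reads in the Ctrl libraries, or 0.13 and 0.0879 RPKM against 0.885 and 0.416 RPKM. Both Gata3-KO libraries lay below both Ctrl libraries even though they were sequenced 1.79 times as deeply. Summed per genotype, 5 of 48289873 reads in Gata3-KO cells against 17 of 26964742 reads in Ctrl cells gave a CPM ratio of 0.164, with a 95% counting interval from 0.0474 to 0.464. That interval covers counting error only, takes each read as an independent count, and does not include the spread between libraries. Reads without molecular identifiers are not independent molecules, so the interval may be too narrow even for counting error.

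Osm (Entrez 18413, chromosome 11: 4236785 to 4241026), the gene of oncostatin M, was at 2.54 and 6.63 RPKM in Gata3-KO libraries, against 1.76 and 3.89 RPKM in Ctrl libraries. The genotypes overlapped, and in each of them one library lay more than 2-fold above the other. The means were 4.59 ± 2.89 RPKM in Gata3-KO and 2.83 ± 1.51 RPKM in Ctrl cells (SD, n = 2 each). The log2 difference was 0.50 ± 0.50 (SE), with a 95% interval from -0.71 to 1.71 and an adjusted p of 0.539 in limma. Without Gata3-KO replicate 2 it was -0.05.

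Csf1 (Entrez 12977, chromosome 3: 107741048 to 107760469) was low in every library. It was measured at 1.40 and 1.02 RPKM in Gata3-KO libraries, from 151 and 108 reads, against 1.39 and 0.321 RPKM in Ctrl libraries, from 88 and 18 reads. Ctrl replicate 1 lay at the level of the Gata3-KO libraries and Ctrl replicate 2 lay below all others. The means were 1.21 ± 0.273 RPKM in Gata3-KO and 0.857 ± 0.757 RPKM in Ctrl cells (SD, n = 2 each). The log2 difference was 0.31 ± 0.38 (SE), with a 95% interval from -0.61 to 1.23 and an adjusted p of 0.621 in limma, and without Ctrl replicate 2 it was -0.12.

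Hbegf (Entrez 15200, chromosome 18: 36504927 to 36515805), which codes for heparin-binding EGF-like growth factor, had the highest level of the 8 in both genotypes. It stood at 87.5 and 109 RPKM in Gata3-KO libraries, against 131 and 24.5 RPKM in Ctrl libraries. The 2 Ctrl libraries differed 5.36-fold and lay on either side of the Gata3-KO libraries. The means were 98.3 ± 15.3 RPKM in Gata3-KO and 77.8 ± 75.4 RPKM in Ctrl cells (SD, n = 2 each), and the log2 difference of 0.77 ± 0.80 (SE) had a 95% interval from -1.31 to 2.84 and an adjusted p of 0.567 in limma. Its sign rested on the Ctrl library used, at 1.96 without Ctrl replicate 1 and -0.42 without Ctrl replicate 2.

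Vegfa (Entrez 22339, chromosome 17: 46016993 to 46032377), the gene of vascular endothelial growth factor A, also differed between the Ctrl libraries. It was at 2.22 and 2.50 RPKM in Gata3-KO libraries, against 11.0 and 2.78 RPKM in Ctrl libraries, a 3.95-fold gap between the 2 Ctrl libraries. The genotypes did not overlap, but Ctrl replicate 2 lay close to the Gata3-KO libraries. The means were 2.36 ± 0.199 RPKM in Gata3-KO and 6.88 ± 5.80 RPKM in Ctrl cells (SD, n = 2 each). The log2 difference was -1.0 ± 0.57 (SE), with a 95% interval from -2.38 to 0.37 and an adjusted p of 0.281 in limma. It was -0.17 without Ctrl replicate 1 and -1.84 without Ctrl replicate 2. Hbegf, Csf1 and Vegfa were all lower in Ctrl replicate 2 than in Ctrl replicate 1, whereas Csf2 and Lif were nearly level between those libraries.

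**Figure D2:**
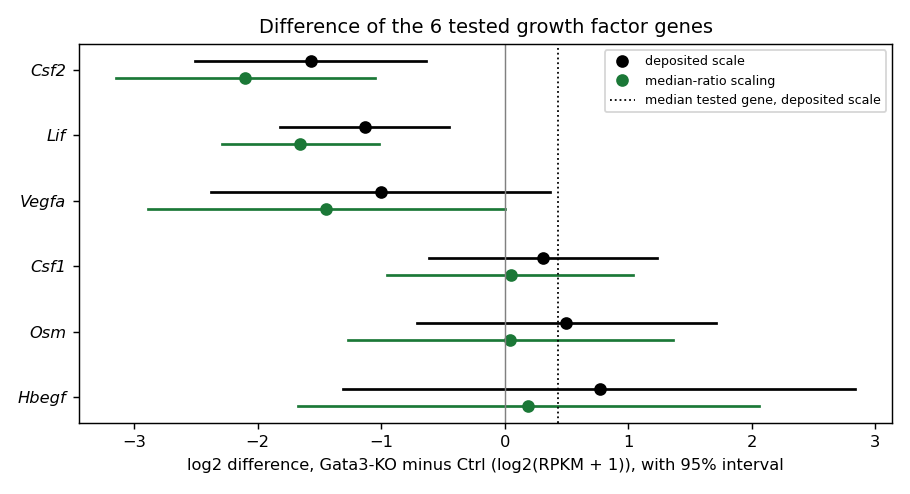
Log2 difference, Gata3-KO minus Ctrl, of the 6 tested growth factor genes with its 95% interval in limma, as deposited (black) and with median-ratio scaling (green); the dotted line is the median tested gene on the deposited scale, at 0.43. The intervals of Csf2 and Lif lie below 0 on both scales, and the others include 0 on the deposited scale.

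Counted without a test, 3 of the 6 tested genes (Csf2, Lif and Vegfa) were lower in both Gata3-KO libraries than in both Ctrl libraries, none was higher in both, and 3 overlapped. Over all tested genes 7.58% were lower in both and 53.9% higher in both. One gene, Slc29a3, took 7.87% and 7.61% of the reads in Gata3-KO libraries, against 17.18% and 27.08% in Ctrl libraries, so the other genes together had a smaller share of the reads in Ctrl. Median-ratio scaling, which brings the typical gene to a common level, put the median of all tested genes at 0.05. On that scale the same 3 genes lay lower in both, against 25.2% of all tested genes lower and 30.1% higher. Csf2 then had a log2 difference of -2.10 ± 0.41 (SE) and an adjusted p of 0.0792 in limma, and Lif of -1.66 ± 0.25 with an adjusted p of 0.0574. Osm lay at 0.04, Csf1 at 0.05, Hbegf at 0.19 and Vegfa at -1.45 on that scale. Of the 6, none was called, against 1.07% of all tested genes, and 2 had an unadjusted p under 0.05, both lower, against 9.01% lower.

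In order of level, Hbegf led in both genotypes and its libraries lay above those of every other member. In Gata3-KO cells Csf2, Lif and Osm followed with overlapping libraries, then Vegfa, Csf1, Il2 and Il3, each apart from the next. In Ctrl cells the order was Csf2, Lif, Vegfa, Osm, Csf1, Il2 and Il3, in which Vegfa overlapped Osm and Csf1 overlapped Il2. The order is a description on the RPKM scale, with no test.

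The genes whose pattern over the 4 libraries was most like that of Csf2 were sought by Euclidean distance between log2(RPKM + 1) values centred on each gene's mean, among 12763 tested genes. Tnfrsf18, the gene of the receptor GITR, was nearest at a distance of 0.388, with 147 and 57.5 RPKM in Gata3-KO libraries against 219 and 236 RPKM in Ctrl libraries. Spn, which codes for CD43, followed at 0.452, with 10.6 and 4.31 RPKM in Gata3-KO libraries against 27.6 and 19.0 RPKM in Ctrl libraries. Galnt18, Rbm12b1 and Ogdhl came next at 0.507, 0.556 and 0.566. These 5 genes were chosen for having the pattern of Csf2, so their lower values in Gata3-KO libraries follow from the choice and are given as a description. Lif ranked 62 by the same distance, Vegfa 1111, Csf1 4876, Osm 9172 and Hbegf 11121.

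Gata3 itself was at 34.5 and 23.3 RPKM in Gata3-KO libraries, against 84.3 and 50.7 RPKM in Ctrl libraries, with a log2 difference of -1.18 ± 0.36 (SE) and an adjusted p of 0.0904 in limma. Reads were summed over the whole gene, including exons that a conditional deletion can leave in place. Markers of LTi cells and other ILC3 summed to 1340 and 1570 RPKM in Gata3-KO libraries, against 1940 and 1370 RPKM in Ctrl libraries, and all 14 had reads in every library. Limma called none of those 14, beside 8.98% of all tested genes. An unadjusted p under 0.05 in limma was reached by 3 of them, beside 4347 of all 14258 tested genes. In limma-voom none was called, beside 279 of the 14258. The median log2 difference of the 14 was -0.10, beside 0.43 over all genes, and -0.68 after median-ratio scaling, beside 0.05. On that scale 10 of the 14 lay lower in both Gata3-KO libraries and 1 higher, against 25.2% and 30.1% of all tested genes.

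Markers of other cells moved with genotype. Their calls on the deposited scale stand beside 8.3% of all tested genes called higher. Those of B and plasma cells summed to 3160 and 1960 RPKM in Gata3-KO libraries, against 505 and 635 RPKM in Ctrl libraries, with 10 of 12 called higher. Epithelial markers summed to 2090 and 3020 RPKM in Gata3-KO libraries, against 520 and 326 RPKM in Ctrl libraries, with 10 of 12 called higher. T cell markers, of a cell type that can make GM-CSF and IL-2, summed to 843 and 343 RPKM in Gata3-KO libraries, against 134 and 163 RPKM in Ctrl libraries, with 5 of 10 called higher. Most of the Ctrl sums came from Thy1 (84.9 and 97.6 RPKM) and Lck (34.8 and 40.5 RPKM). Cd3d and Cd6 were high only in Gata3-KO replicate 1 (62.0 and 52.3 RPKM, against 2.35 and 0.165 RPKM in replicate 2), whereas Cd247 was at 9.51 and 10.3 RPKM in the Gata3-KO libraries. None of the markers in these 3 lists was at 0 in any library, and their part in the values of the growth factors was not tested. After median-ratio scaling no B or plasma cell marker, 1 T cell marker and 5 epithelial markers were still called, while the differences stayed large. Over all tested genes 1.07% were then called, in either direction. The median log2 difference was 2.47 on that scale, beside 2.89 as deposited, for B and plasma cell markers, 1.77 beside 2.26 for T cell markers and 2.01 beside 2.59 for epithelial markers. All 12 B and plasma cell markers, 11 of 12 epithelial markers and 6 of 10 T cell markers still lay higher in both Gata3-KO libraries, against 30.1% of all tested genes. Without any 1 library limma on the deposited scale called no gene at all, where an unadjusted p under 0.05 was reached by 2416 to 3815 genes. In such bulk samples fewer cells of a type and less RNA per cell cannot be told apart.

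Myeloid markers summed to 54.9 and 223 RPKM in Gata3-KO libraries, against 37.0 and 50.1 RPKM in Ctrl libraries. Of the 11 tested, 2 were called higher (Cybb and Clec10a), beside 8.3% of all tested genes. Clec10a had no reads in the Ctrl libraries and met the CPM filter only through the Gata3-KO libraries, so its call is given as a description. Osm, a product of myeloid cells among others, was also highest in Gata3-KO replicate 2, and the part of myeloid RNA in its values was not tested. Among the 12 myeloid markers, 1 and 0 had no reads in the Gata3-KO libraries, against 4 and 1 in the Ctrl libraries, and Cd14 and Lyz2 had reads in all. Stromal and endothelial markers summed to 37.8 and 65.0 RPKM in Gata3-KO libraries, against 39.4 and 98.2 RPKM in Ctrl libraries. Limma and limma-voom called none of the 8 tested, and none had an unadjusted p under 0.05 in limma. Of all 14258 tested genes limma called 8.98%, limma-voom called 279, and 4347 had an unadjusted p under 0.05 in limma. In the mast cell and eosinophil list, Fcer1a, Ms4a2 and Epx had no reads in any library. Of its 4 tested genes Prg2 was called higher, beside 8.3% of all tested genes. Cpa3 and Kit lay lower in both Gata3-KO libraries without passing (log2 differences -0.66 and -0.41), beside 7.58% of all tested genes. Kit is also in the list of LTi and ILC3 markers, so it does not mark mast cells alone. The median of the mast cell and eosinophil list was -0.14.

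**Figure D3:**
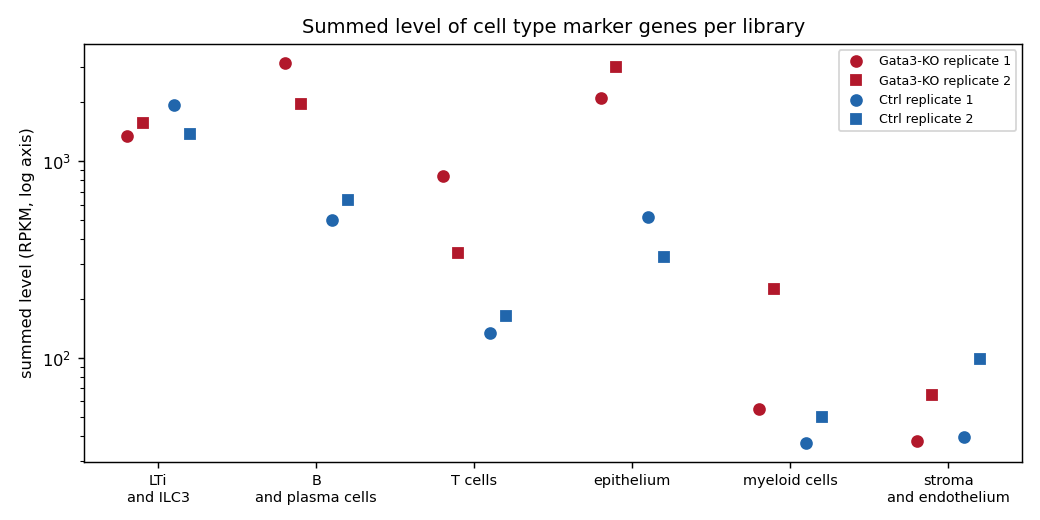
Summed level of marker genes per list in RPKM (log axis) in each Gata3-KO library (red, left) and Ctrl library (blue, right); circles are replicate 1 and squares replicate 2. B and plasma cell, T cell and epithelial sums lie higher in both Gata3-KO libraries than in both Ctrl libraries, whereas the LTi and ILC3 sums overlap.

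Among the receptors of these factors, Csf2rb2 and Il6st rose in Gata3-KO cells and none fell, out of 14 tested of 17. Over all tested genes 8.3% were called higher and 0.687% lower. Csf2rb2, a beta chain used by the mouse IL-3 receptor, was at 2.89 and 2.16 RPKM in Gata3-KO libraries, against 0.0151 and 0.0342 RPKM in Ctrl libraries. Its log2 difference was 1.78, with an adjusted p of 0.0256 in limma. Csf2rb2 met the CPM filter only through the Gata3-KO libraries, where it was high, so its call is given as a description. Csf2rb, the common beta chain of the GM-CSF, IL-3 and IL-5 receptors, was at 3.58 and 14.8 RPKM in Gata3-KO libraries, against 0.852 and 1.47 RPKM in Ctrl libraries, and did not pass (log2 difference 1.99, adjusted p of 0.0948 in limma). The 2 genes are near-identical copies and may share reads, so their separate values are uncertain. Il6st, which codes for gp130, the chain through which LIF and oncostatin M signal, was at 9.04 and 8.29 RPKM in Gata3-KO libraries, against 2.45 and 2.21 RPKM in Ctrl libraries (log2 difference 1.54, adjusted p of 0.0368 in limma). Both calls were lost after median-ratio scaling, where the log2 differences were 1.57 and 1.06, and without any 1 library, and Il6st also passed in limma-voom.

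The ligand-binding chains did not pass. Csf2ra, the GM-CSF receptor alpha chain, was at 11.4 and 41.5 RPKM in Gata3-KO libraries, against 11.8 and 10.3 RPKM in Ctrl libraries (log2 difference 0.93). Il3ra was at 11.4 and 14.9 RPKM in Gata3-KO libraries, against 6.67 and 9.74 RPKM in Ctrl libraries (0.63). Csf1r, a macrophage gene, was at 0.658 and 24.4 RPKM in Gata3-KO libraries, against 1.03 and 4.79 RPKM in Ctrl libraries (0.92), and was highest in the library with the highest sum of myeloid markers, a list that holds it. The IL-2 receptor chains were among the most abundant receptors. Il2rb was at 497 and 592 RPKM in Gata3-KO libraries, against 970 and 933 RPKM in Ctrl libraries, with no overlap (log2 difference -0.81, adjusted p of 0.141 in limma), and it passed only in limma-voom with median-ratio scaling (-1.40). Il2rg, the common gamma chain, was at 369 and 467 RPKM in Gata3-KO libraries, against 602 and 385 RPKM in Ctrl libraries (-0.22). Il2ra, the CD25 chain, was at 44.9 and 65.5 RPKM in Gata3-KO libraries, against 57.3 and 42.8 RPKM in Ctrl libraries (0.13 as deposited, -0.45 with median-ratio scaling).

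Receptors of the remaining factors were low, apart from Nrp1. Lifr averaged 0.201 RPKM in Gata3-KO and 0.0683 RPKM in Ctrl cells (log2 difference 0.17), and Osmr was too low for the test. Egfr, which HB-EGF binds, averaged 0.956 RPKM in Gata3-KO and 0.0850 RPKM in Ctrl cells (log2 difference 0.83, adjusted p of 0.0982 in limma), and Erbb4 had no reads. Of the VEGF receptors, Flt1 averaged 0.00332 RPKM in Gata3-KO and 0.220 RPKM in Ctrl cells (-0.28), and Kdr was too low for the test. The coreceptor Nrp1, also a gene of LTi cells, was at 20.9 and 24.7 RPKM in Gata3-KO libraries, against 45.7 and 18.9 RPKM in Ctrl libraries (-0.36), and Nrp2 averaged 0.187 RPKM in Gata3-KO and 0.287 RPKM in Ctrl cells (-0.08). The median log2 difference of the 14 tested receptors was 0.40, beside 0.43 over all genes.

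Of 31 related ligands of the same families, 15 were tested, 3 rose (Areg, Pdgfa and Nrg1) and none fell, beside 8.3% of all tested genes called higher and 0.687% lower. The median log2 difference of the 15 was 0.40, beside 0.43 over all genes. Areg, the gene of amphiregulin, another ligand of the EGF receptor, was at 295 and 139 RPKM in Gata3-KO libraries, against 41.2 and 40.3 RPKM in Ctrl libraries (log2 difference 2.29 ± 0.40 SE, adjusted p of 0.0291 in limma). The genotypes did not overlap, and on the RPKM scale Areg lay above Hbegf in both Gata3-KO libraries, whereas in Ctrl cells the libraries of Hbegf lay on either side of those of Areg. Pdgfa, a growth factor of mesenchymal cells, was at 17.5 and 22.3 RPKM in Gata3-KO libraries, against 6.80 and 3.64 RPKM in Ctrl libraries (1.79, adjusted p of 0.0380 in limma). Nrg1, a ligand of ERBB receptors, was at 0.978 and 1.21 RPKM in Gata3-KO libraries and had no reads in either Ctrl library (adjusted p of 0.0404 in limma). Nrg1 met the CPM filter only through the Gata3-KO libraries, where it was high, so its call is given as a description. None of the 3 passed after median-ratio scaling, with log2 differences of 1.71, 1.26 and 0.92, or without any 1 library, and Areg passed in limma-voom. Clcf1, an IL-6 family ligand, was at 23.6 and 28.2 RPKM in Gata3-KO libraries, against 53.2 and 42.0 RPKM in Ctrl libraries, and did not pass (log2 difference -0.85, adjusted p of 0.104 in limma). Csf3, Il9, Il11 and Epgn had no reads in any library. The epithelial markers, which were higher in the same Gata3-KO libraries, are given above, and their part in the values of Areg and Pdgfa was not tested.

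**Figure D4:**
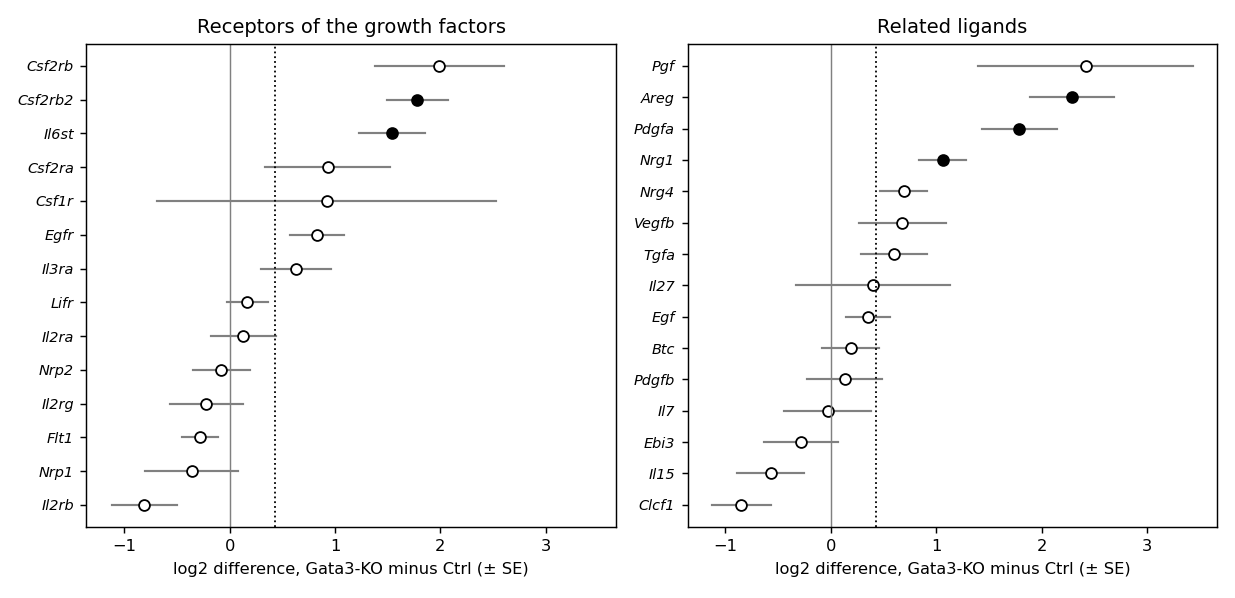
Log2 difference, Gata3-KO minus Ctrl, with its SE in limma, of the tested receptors of the growth factors (left) and of the tested related ligands (right); filled points passed an adjusted p of 0.05 on the deposited scale, and the dotted line is the median tested gene at 0.43. Csf2rb2 and Il6st on the left and Areg, Pdgfa and Nrg1 on the right are filled, and no point below 0 is.

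Of 11 genes of ectodomain shedding, the cleavage that frees HB-EGF and related ligands, 9 were tested. Timp3, a tissue inhibitor of metalloproteinases, rose and none fell, beside 8.3% of all tested genes called higher and 0.687% lower. It was at 23.6 and 32.4 RPKM in Gata3-KO libraries, against 2.18 and 0.185 RPKM in Ctrl libraries (log2 difference 3.88 ± 0.51 SE, adjusted p of 0.0193 in limma), and passed in limma-voom but neither after median-ratio scaling, where the log2 difference was 3.49, nor without any 1 library. Adam17, the main sheddase of this group, averaged 9.28 RPKM in Gata3-KO and 5.92 RPKM in Ctrl cells and did not pass (0.57). The list's median was 0.85 on the deposited scale, beside 0.43 over all genes, and 0.28 after median-ratio scaling, beside 0.05.

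None of 13 regulators of AU-rich mRNA decay was called by limma or limma-voom. Of all 14258 tested genes limma called 8.98% and limma-voom called 279. In limma 2 of the 13 had an unadjusted p under 0.05, both higher. Over all 14258 tested genes 4347 reached that threshold, 363 of them lower. The median log2 difference of the 13 was 0.14, beside 0.43 over all genes, and -0.20 after median-ratio scaling, beside 0.05. Counted without a test, 5 of the 13 lay higher in both Gata3-KO libraries and 2 lower, against 53.9% and 7.58% of all tested genes. Zfp36, which codes for tristetraprolin, was at 658 and 827 RPKM in Gata3-KO libraries, against 378 and 316 RPKM in Ctrl libraries, with no overlap. Its log2 difference was 1.09 (adjusted p of 0.0781 in limma), and 0.50 after median-ratio scaling (adjusted p of 0.255 in limma). Zc3h12a, the gene of the endonuclease regnase-1, was at 69.7 and 70.4 RPKM in Gata3-KO libraries, against 95.2 and 90.0 RPKM in Ctrl libraries (-0.40, adjusted p of 0.335 in limma). After median-ratio scaling Zc3h12a lay at -0.98 (adjusted p of 0.0821 in limma).

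Receptors and adaptors through which IL-1, IL-18, IL-23, IL-7 and TL1A can induce GM-CSF were not called either, in limma or limma-voom. Limma called 8.98% of all 14258 tested genes, and limma-voom called 279. At an unadjusted p under 0.05 in limma, 2 of 13 tested genes were higher and 2 lower. Over all 14258 tested genes 4347 reached that threshold, 363 of them lower. The median log2 difference of the 13 was 0.17, beside 0.43 over all genes, and -0.38 after median-ratio scaling, beside 0.05. Counted without a test, 4 of the 13 lay lower in both Gata3-KO libraries and 3 higher, against 7.58% and 53.9% of all tested genes. After median-ratio scaling 7 lay lower in both and 2 higher, against 25.2% and 30.1%. Il1r1 was at 46.2 and 47.0 RPKM in Gata3-KO libraries, against 27.8 and 27.9 RPKM in Ctrl libraries, and lay above Ctrl in both. Its log2 difference was 0.72 (adjusted p of 0.117 in limma), and 0.15 after median-ratio scaling. Il18rap, Il18r1, Il7r and Tnfrsf25 lay below Ctrl in both Gata3-KO libraries, with log2 differences of -0.89, -0.67, -0.98 and -0.54, none of which passed.

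Among 31 transcription factor genes reported at Csf2 or Il2, Irf4, Fosl1 and Ets2 rose and none fell. These 3 calls among 31 genes are near the 8.98% called over all tested genes, and the median log2 difference was 0.05, beside 0.43 over all genes. After median-ratio scaling the median of the 31 was -0.54, beside 0.05 over all genes. On that scale 18 of the 31 lay lower in both Gata3-KO libraries and 4 higher, against 25.2% and 30.1% of all tested genes. Irf4, a factor of lymphocyte activation that B and plasma cells also express, was at 24.6 and 14.0 RPKM in Gata3-KO libraries, against 0.538 and 1.80 RPKM in Ctrl libraries (log2 difference 3.24 ± 0.44 SE, adjusted p of 0.0196 in limma). The sums of B and plasma cell markers were higher in the same libraries, and their part in the values of Irf4 was not tested. Fosl1 and Ets2 differed by 1.76 and 1.56 log2 units (adjusted p of 0.0342 and 0.0480 in limma). After median-ratio scaling, with log2 differences of 2.80 for Irf4, 1.24 for Fosl1 and 1.0 for Ets2, none of the 3 passed, nor without any 1 library. The NFAT genes Nfatc1 and Nfatc2 lay at -0.02 and 0.06, and turned to -0.59 and -0.49 after median-ratio scaling. Rora averaged 510 RPKM in Gata3-KO and 1020 RPKM in Ctrl cells (-0.99, adjusted p of 0.110 in limma) and passed only in limma-voom with median-ratio scaling.

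Of 10 genes that respond to GM-CSF or STAT5, Id1 rose and none fell, beside 8.3% of all tested genes called higher and 0.687% lower. Id1, an inhibitor of basic helix-loop-helix factors, was at 34.7 and 55.4 RPKM in Gata3-KO libraries, against 11.0 and 9.70 RPKM in Ctrl libraries (log2 difference 1.99, adjusted p of 0.0254 in limma), and its call was lost after median-ratio scaling (1.43), in limma-voom and without any 1 library. Cish, a STAT5-induced feedback inhibitor, was at 32.9 and 76.9 RPKM in Gata3-KO libraries, against 184 and 141 RPKM in Ctrl libraries, with no overlap (log2 difference -1.65 ± 0.44 SE, adjusted p of 0.0666 in limma), and passed with the 5 CPM filter. Over the 7 pathway lists together, 10 of 105 tested genes were called on the deposited scale, all higher, beside 8.98% of all tested genes called, of which most were higher. The count is near that background.

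**Figure D5:**
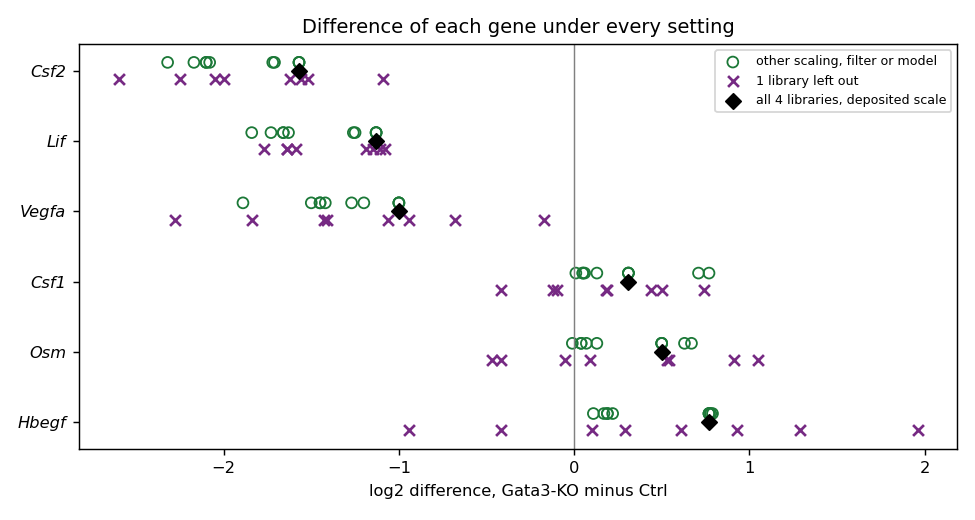
Log2 difference, Gata3-KO minus Ctrl, of each tested growth factor gene with all 4 libraries on the deposited scale (black), under other scalings, filters and models (green circles) and with 1 library left out (purple crosses). Csf2 runs from -2.60 to -1.09, Lif from -1.84 to -1.08 and Vegfa from -2.28 to -0.17, all below 0, whereas Csf1, Osm and Hbegf lie on both sides of 0. For Csf2, Lif and Vegfa the genotypes do not overlap, so leaving out 1 library on the deposited scale could not turn the sign.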

How the data were processed

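Per the labels' protocols, a miRNeasy Micro kit (Qiagen) was used for total RNA and Smart-seq2, which covers whole transcripts and uses no molecular identifiers, for the libraries. Subread, featureCounts and mm10 are named in the submitters' processing notes, whereas annotation, versions and strandedness were not found in the labels. The authors deposited log2(RPKM + 1) plus 0.0001, as the values themselves show, which is thus the value of genes with no reads. They are scaled to each library's own total. RPKM was computed back from them. Whole reads were recovered from their steps. All 19047 genes with reads came out whole within 0.001 reads, but gene lengths were chosen to make them so. Recovered reads summed to 99.9% to 100.1% of totals of 24315878 and 23973995 reads in Gata3-KO and 14294708 and 12670034 reads in Ctrl libraries.

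The test was limma 3.58.1 in R 4.3.3 (trend and robust variance, two-sided) on log2(RPKM + 1), pseudocount 1, with Benjamini-Hochberg adjustment over 14258 genes and a threshold of 0.05. Genes needed 0.523 CPM in 2 libraries and 15 reads in total. The steps were tested on simulated data. The alternatives changed the scaling (TMM, upper-quartile, median-ratio), the filter, the model (limma-voom on the reads, a replicate block), the pseudocount (0.1) or the libraries, each left out in turn. An exact permutation test of 2 against 2 libraries cannot go below 0.333, so none is given. Symbols and coordinates came from RefSeq GRCm38.p6 by Entrez identifier (25275 matched) and 3′ UTRs from GENCODE (basic set, longest per gene). Other steps used Python 3.11.15 (pandas 2.3.3, numpy 2.4.6, matplotlib 3.10.9, scipy 1.17.1).

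The members and lists were chosen with earlier results of these data known. Named by rule were the 8 members, Gata3, every tested receptor, up to 5 called genes per list and the 5 genes most like Csf2. Cish, Clcf1, Zfp36, Zc3h12a, Adam17, Rora, Nfatc1, Nfatc2, Il1r1, Il18rap, Il18r1, Il7r, Tnfrsf25, Slc29a3 and the single markers were named after their values were seen.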

Additional observations from a re-analysis of the deposited data

How the results depend on the processing

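Csf2, Lif and Vegfa kept their direction under all 18 alternatives, of which many could not change it. Their libraries did not overlap between genotypes, so leaving out 1 on the deposited scale could not turn the sign. The filters and the replicate block do not alter a difference on a given scale. With all 4 libraries, adjusted p in limma or limma-voom ran from 0.0291 to 0.136 for Csf2 and from 0.0388 to 0.114 for Lif. The stricter filter alone brought members past the threshold, 2 in place of 0 (Csf2 at -1.57, adjusted p of 0.0291, and Lif), and it tested fewer genes. Osm turned to -0.01 with upper-quartile scaling, to -0.05 without Gata3-KO replicate 2, and, with median-ratio scaling, to -0.42 without that library and to -0.47 without Ctrl replicate 1. Csf1 turned to -0.12 without Ctrl replicate 2 and, with median-ratio scaling, to -0.42 without that library and -0.10 without Gata3-KO replicate 1. Hbegf turned to -0.42 without Ctrl replicate 2 and to -0.94 with median-ratio scaling as well. The highest values without 1 library were 1.05 for Osm, 0.74 for Csf1 and 1.96 for Hbegf. The cause of each was not tested. Of all tested genes limma called 1281, against 178 after TMM scaling, 140 after upper-quartile scaling, 152 after median-ratio scaling and 279 in limma-voom. Combined with median-ratio scaling, limma-voom gave 95 and the replicate block 18. No filter gave 0, although 4336 genes had an unadjusted p under 0.05. A pseudocount of 0.1 gave 858. In the pathway lists the 10 calls became 0 after each of those 3 scalings, 0 without a filter and 4 in limma-voom. Combined with median-ratio scaling they became 2 in limma-voom and 0 with the replicate block. Leaving out 1 library gave 0 to 0 calls over all genes and 0 to 0 in the lists, and with median-ratio scaling 0 to 91 and 0 to 1. Same-numbered libraries share a number in their titles. The correlation of their deviations was -0.021 over 14258 genes, which cannot settle whether they were paired. The replicate block gave 1020 calls and 0 members, with an adjusted p in limma of 0.0635 for Csf2 and 0.0928 for Lif. Il2 and Il3 are limited by depth.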
